A study of Homo sapiens with 104 samples.

Results

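The genes described here encode 35 proteins of ribosome assembly and of the nucleolus. They were followed in human lymphoblastoid (B-cell derived) lines, untreated and after MNNG, and set beside the fall of MYC in the same lines. A member was read from array probe sets that carry its symbol and no other, which gave 30 of the 35 members on 63 probe sets. NOP56, DKC1 and BOP1 had only probe sets with several symbols, and GNL3 and EBNA1BP2 were not listed, so these 5 are not analysed here. All 30 passed the filter that left out the 30% of genes with the lowest mean, among 13842 tested of 19775 genes in all. MNNG (N-methyl-N'-nitro-N-nitrosoguanidine) is an alkylating agent that methylates DNA, in particular guanine.

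The groups were untreated and MNNG-treated cells of 24 numbered panel lines, of TK6, and of MT1, all grown to mid log phase, with duplicate arrays for each. TK6 is an established lymphoblastoid line without the repair protein MGMT. MT1 was derived from it by selection for resistance to alkylation and lacks mismatch repair, the process through which methylated guanine kills cells. TK6 and MT1 are each a single line. The sources used here give neither the dose nor the length of exposure. There were 52 arrays of untreated and 52 of MNNG-treated cells, and 22 of the latter were left out because a probe set for the spiked-in cre transcript lay over 2 log2 units below its partner. The gap was -6.45 to -5.19 in these 22 and 0.082 to 0.83 in the 82 arrays kept. This left 19 panel lines with an MNNG array, 8 with both and 11 with 1, all 4 TK6 arrays, and for MT1 a single MNNG array. Duplicate arrays correlated at 0.966 to 0.996. The median levels of 8 of 8 measured B cell markers (9 listed) lay above 6 on a scale that starts at 5, against 1 of 6 markers each for T cells, myeloid cells and fibroblasts. The mean level of the T, myeloid and fibroblast lists stayed between 5.43 and 6.29 in every array. Nothing in the labels says that duplicates came from separate cultures, so p-values that rest on them may measure technical spread alone.

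Ribosomes are built in the nucleolus, where RNA polymerase I transcribes the precursor of ribosomal RNA. Small nucleolar ribonucleoproteins (snoRNPs) then modify the precursor, the small subunit processome folds and cleaves it, and separate sets of assembly factors finish the 40S and 60S subunits. MYC, a transcription factor that binds DNA with its partner MAX at the E-box CACGTG, is known to drive many of these genes in growing cells, lymphoid cells among them. The comparison asks whether these transcripts moved with MNNG and how their change compares with that of MYC.

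Promoter stretches of 7 genes are printed. They are the 5 members with the largest called changes in TK6 (NOB1, FBL, IMP4, WDR12 and WDR43) and those with the largest called rise (POLR1C) and fall (UTP20) in the panel. They run from 70 bases before to 30 bases after the annotated transcription start, 5′ to 3′ on the gene's strand, from RefSeq on GRCh38.p14. The capitals mark the E-box, CACGTG, which reads the same on both strands. The stretches are FBL (chr19:39846350-39846449, minus strand), IMP4 (chr2:130342827-130342926, plus strand), WDR43 (chr2:28894597-28894696, plus strand), UTP20 (chr12:101280035-101280134, plus strand), NOB1 (chr16:69754897-69754996, minus strand), WDR12 (chr2:202911644-202911743, minus strand) and POLR1C (chr6:43517019-43517118, plus strand).
FBL: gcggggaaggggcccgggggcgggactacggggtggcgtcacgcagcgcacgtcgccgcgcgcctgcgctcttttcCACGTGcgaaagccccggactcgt
IMP4: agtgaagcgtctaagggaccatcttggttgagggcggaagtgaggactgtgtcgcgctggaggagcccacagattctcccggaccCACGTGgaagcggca
WDR43: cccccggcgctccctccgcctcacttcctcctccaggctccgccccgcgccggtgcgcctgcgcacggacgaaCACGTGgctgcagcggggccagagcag
UTP20: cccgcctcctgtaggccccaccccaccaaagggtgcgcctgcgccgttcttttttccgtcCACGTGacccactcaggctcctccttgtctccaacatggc
NOB1: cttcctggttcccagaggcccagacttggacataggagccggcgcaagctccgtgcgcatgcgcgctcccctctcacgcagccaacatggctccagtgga
WDR12: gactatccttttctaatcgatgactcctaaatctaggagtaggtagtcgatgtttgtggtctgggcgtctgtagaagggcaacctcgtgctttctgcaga
POLR1C: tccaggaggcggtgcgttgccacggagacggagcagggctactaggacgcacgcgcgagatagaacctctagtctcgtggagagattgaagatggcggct
The first 4 hold the motif and the last 3 do not in this stretch. In FBL it begins at base 7 after the start, in IMP4 at base 16 and in WDR43 at base 4, while in UTP20 it begins 10 bases before the start. IMP4 has 2 annotated starts, and the one shown is that with the motif, while the window of the other holds 0. RefSeq gave a promoter window, 250 bases before to 50 after the start, for 30 of the 35 members, those without an array value included. BOP1, RRS1, RRP12, NOP58 and NOLC1 had none in the table. Of the 30, 16 (53.3%) held CACGTG, against 2396 of 27305 genes (8.77%) and 7.26% of 35116 windows, where some genes have several and a gene was counted if any of its windows held the motif. A match describes the letters and does not show that a factor binds there.

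In the 19 panel lines most called members rose by little while MYC fell. MYC lay at a log2 level of 9.65, 10.29 and 11.19 (lowest, median and highest line) untreated and at 9.04, 9.63 and 10.31 after MNNG. Its change was -0.62 ± 0.043 (± is the standard error of limma's moderated test throughout; adjusted p = 8.21e-09), below 0 in all 19 lines. Of the 30 members 16 were called at an adjusted p below 0.05 (12 higher and 4 lower), or 53.3%, where 42.6% of all genes tested were called, 28.7% higher and 13.8% lower. The median change was 0.072 over the members and 0.037 over all genes. The members' share therefore lay near that of the whole table, and their changes were small, the largest being 1.24-fold. With all probe sets of a gene averaged, 21 members were called (13 higher and 8 lower), beside 5697 of all genes.

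**Figure D1:**
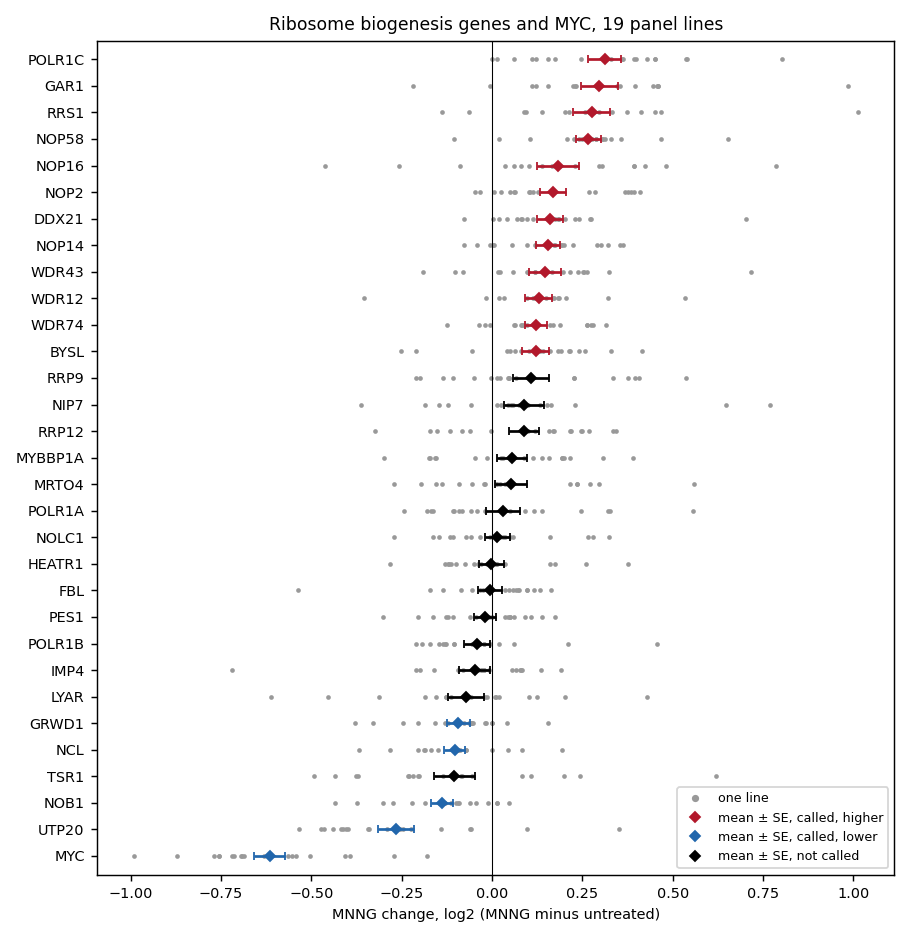
MNNG change (log2, MNNG minus untreated) of 30 ribosome biogenesis genes and MYC, with a grey point for each of 19 panel lines and a diamond for the mean ± standard error, red where called higher, blue where called lower and black where not called. All 19 points of MYC lie below 0, while POLR1C and NOP58 have 18 points above 0 and UTP20 has 17 below.

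Among the snoRNP proteins, NOP58, a core protein of the box C/D particles that guide ribose methylation, rose in 18 of 19 lines (0.27 ± 0.034, adjusted p = 1.68e-06). Its levels were 10.12, 10.41 and 10.67 untreated and 10.50, 10.66 and 10.91 after MNNG, as lowest, median and highest line, so the ranges overlapped. GAR1, a core protein of the box H/ACA particles that guide pseudouridylation, rose in 17 lines (0.30 ± 0.051, adjusted p = 6.18e-05), from 8.33, 8.62 and 9.15 to 8.38, 8.95 and 9.50. FBL, the methyltransferase fibrillarin of the same box C/D particles as NOP58, did not pass (-0.0050 ± 0.034, adjusted p = 0.919; 11 lines above 0 and 8 below). The partners NOP58 and FBL thus had changes of 0.27 and -0.0050 in the same lines. Nucleolin (NCL), the major nucleolar phosphoprotein, fell in 15 lines (-0.10 ± 0.028, adjusted p = 0.00466), and NOLC1, a phosphoprotein that chaperones snoRNPs, did not pass (0.014).

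Of the 4 genes of RNA polymerase I transcription 1 rose and 3 did not pass. POLR1C, a subunit shared by polymerases I and III, had the largest rise of all members (0.31 ± 0.046, adjusted p = 9.41e-06, 18 of 19 lines above 0). Its levels were 7.04, 7.79 and 8.07 untreated and 7.77, 8.10 and 8.48 after MNNG, and its second probe set gave 0.23, above 0 in 17 lines. The large catalytic subunits POLR1A (0.031) and POLR1B (-0.040), which belong to polymerase I alone, did not pass, nor did MYBBP1A (0.055), a nucleolar MYB-binding protein.

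Of the 8 small subunit factors 3 rose, 1 fell and 4 did not pass. UTP20, a large scaffold protein of the early particle, fell in 17 of 19 lines (-0.27 ± 0.049, adjusted p = 0.00013), from 6.21, 6.84 and 7.16 to 6.16, 6.54 and 7.13. The helicase DDX21 (0.16 ± 0.035, 18 lines above 0) and the processome components NOP14 (0.16 ± 0.033) and WDR43 (0.15 ± 0.043) rose. HEATR1, IMP4, RRP9 and RRP12 did not pass, at -0.048 to 0.11. Among the 4 late 40S genes, NOB1, the endonuclease that makes the last cut of 18S ribosomal RNA, fell in 16 lines (-0.14 ± 0.031, adjusted p = 0.000831), a call that ended without either replicate (-0.17 and -0.056). BYSL (bystin) rose by 0.12 ± 0.038. TSR1 (-0.10) and the nucleolar zinc finger protein LYAR (-0.072) did not pass.

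Of 7 60S assembly genes 4 rose, 1 fell and 2 did not pass. Of the pair measured from a separate 60S group, the PES1, BOP1 and WDR12 complex, WDR12 rose (0.13 ± 0.037) and PES1 did not pass (-0.020). RRS1, which helps place the 5S ribonucleoprotein, rose in 17 lines (0.28 ± 0.051, adjusted p = 0.000131), from 7.84, 8.57 and 8.97 to 8.32, 8.80 and 9.32. NOP16 (0.18 ± 0.058, adjusted p = 0.0138, 16 lines above 0) and the ribosomal RNA methyltransferase NOP2 (0.17 ± 0.036, adjusted p = 0.000505, 17 lines) rose, as did WDR74 (0.12 ± 0.031). MRTO4 (0.053) and NIP7 (0.089) did not pass, although a second probe set of NIP7 gave 0.29, above 0 in 17 lines. The histone-binding protein GRWD1 fell (-0.093 ± 0.033, adjusted p = 0.0241, 16 lines below 0). Its call ended without line 1 (-0.080), and with a single replicate its change ranged from -0.20 to 0.067.

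The calls of most panel rises depended on how the arrays were scaled. Of the 16 called members 15 kept their sign, several of them at values near 0 under 1 scaling. Array medians differed by 1.33 before normalization, so arrays were quantile normalised. With values as deposited 13 members rose and 3 fell, and with each array centred on its median 1 rose and 5 fell. The median of all genes was 0.037, 0.13 and -0.021 in these 3 settings. Relative to it, the members' median was 0.035, -0.012 and -0.012. The members called with the same sign in all 3 were POLR1C upward and NCL, UTP20 and NOB1 downward. The exception in sign was WDR12, at -0.023 with centring. DDX21 (0.0001), BYSL (0.0027), WDR74 (0.020), NOP14 (0.026), WDR43 (0.027), NOP16 (0.029) and NOP2 (0.031) lay near 0 with centring, where their sign says little. With the 22 arrays put back, 1 member rose and 21 fell, and the median over the members was -0.51. Without the arrays of replicate 1, which drops the lines whose second MNNG array was left out, 2 members, POLR1C and NOP58, were called, with GAR1 at 0.13, RRS1 at 0.14 and NOP16 at 0.048, none of them called. Without the line as a block 6 were called, and in the 8 lines with both MNNG arrays, a choice made after seeing the data, 8 were called, all higher. Beside these changes, the log2 ratio of 3′ to 5′ probe sets of ACTB, a sign of RNA integrity and labelling, was higher after MNNG in 18 of 19 lines (by 0.20 ± 0.11, SD). Its part in these results was not tested, and across lines its change correlated with the members' mean change at -0.074 (n = 19, from the same arrays).

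In TK6 the called members changed in both directions. MYC was at 11.18 and 11.17 in the untreated arrays and at 8.98 and 8.73 after MNNG, a 5.00-fold fall (-2.32 ± 0.12, adjusted p = 1.11e-19). Of the 30 members 10 were called (4 higher and 6 lower), or 33.3%, against 41.2% of all genes, 21.6% higher and 19.5% lower. The median change was -0.0068 over the members and -0.029 over all genes. Large falls of a few members thus stood beside a median near that of all genes. In cells sampled in bulk, a lower level in every cell and its loss from some cells cannot be told apart.

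The large falls in TK6 were those of 4 members from different steps. FBL was at 11.61 and 11.59 untreated and at 10.26 and 10.10 after MNNG. This was a 2.68-fold fall (-1.42 ± 0.053, adjusted p = 3.98e-24), with the groups wide apart. NOB1 was at 10.22 and 10.40 untreated and at 8.97 and 8.68 after MNNG (-1.49 ± 0.14, adjusted p = 6.33e-12), 2.80-fold lower. Its untreated level, 10.31 on average, lay above the highest of the 24 panel lines, 9.85. IMP4, which joins the U3 snoRNP in the processome, was at 9.43 and 9.50 and then at 8.43 and 8.31 (-1.09 ± 0.12, adjusted p = 1.24e-09), 2.13-fold lower. WDR12 was at 8.78 and 8.64 and then at 7.81 and 7.82 (-0.90 ± 0.058, adjusted p = 1.75e-16), 1.86-fold lower. In each of these 4 the untreated and treated arrays did not overlap, but that held for 22 of the 30 members, called or not, and for 68% of all genes (12 members and 35.8% of genes lower after MNNG, 10 members and 32.2% higher). FBL, NOB1 and IMP4 rest on a single probe set each, and the other probe sets of WDR12, at levels of 5.95 and 5.88 near the bottom of the scale, gave 0.14 and -0.15. With its probe sets averaged the change of WDR12 was -0.31 and was still called. DDX21 (-0.29 ± 0.083, adjusted p = 0.00363) and NCL (-0.23 ± 0.086, adjusted p = 0.0261) fell less, and a second probe set of DDX21 at nearly the same mean level (10.78 against 10.79) gave 0.011. The 20 members that did not pass lay between -0.34 (HEATR1) and 0.32 (NIP7).

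The 4 members that rose in TK6 were a processome component, a 60S factor and 2 genes of the RNA polymerase I group. WDR43 was at 7.77 and 7.95 untreated and at 8.69 and 8.76 after MNNG, 1.82-fold higher (0.87 ± 0.13, adjusted p = 6.01e-07). NOP2 went from 7.77 and 7.65 to 8.14 and 8.22 (0.47 ± 0.088, adjusted p = 2.57e-05), and MYBBP1A from 7.17 and 7.06 to 7.67 and 7.53 (0.48 ± 0.14, adjusted p = 0.00393). POLR1C went from 7.83 and 7.44 to 7.97 and 8.18 (0.44 ± 0.15, adjusted p = 0.0178), and its second probe set gave the same value, 0.44. The arrays of each of these 4 lay apart, although by little for POLR1C. Within the processome, IMP4 fell and WDR43 rose in the same arrays, and within the box C/D core FBL fell while NOP58 did not pass (0.17 ± 0.077, adjusted p = 0.0769). The call of MYBBP1A ended without either replicate, on values as deposited (0.63) and with its probe sets averaged (0.33). That of NOP2 ended with each array centred on its median (0.38). The call of POLR1C ended without replicate 2 (0.13), under both other scalings (0.56 and 0.36) and when only TK6 and MT1 arrays entered the model. The spread in this model is shared by the duplicates of all lines. With the 22 left-out arrays put back, none of which is from TK6, the change of FBL was -1.43 and that of MYC -2.36, but 0 members were called (0 also at an unadjusted p below 0.05, by limma). With all 3 scalings WDR43 rose and FBL, NOB1, IMP4, WDR12 and DDX21 fell.

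MT1 showed a smaller fall of MYC and rises only among its called members. MYC was at 11.25 and 11.13 untreated and at 10.25 in the single MNNG array kept (-0.94 ± 0.15, adjusted p = 8.61e-05). Of the 30 members 4 were called, all higher, or 13.3%, against 3.56% of all genes (2.36% higher and 1.21% lower). With limma, 0 members fell, also at an unadjusted p below 0.05, where 7 were higher. The single MNNG array was assumed to vary like the other groups. NOP58 was at 10.04 and 10.01 and then at 10.61 (0.58 ± 0.094, adjusted p = 0.000162). RRS1 went from 8.43 and 8.62 to 9.05 (0.53 ± 0.12, adjusted p = 0.0112), GAR1 from 9.00 and 8.97 to 9.45 (0.46 ± 0.13, adjusted p = 0.0387), and NOP14 from 7.52 and 7.68 to 8.02 (0.41 ± 0.11, adjusted p = 0.0212). In each of the 4 the MNNG array lay above both untreated arrays, but that held for 17 of the 30 members and for 39.9% of all genes. In all, the MNNG array lay outside the untreated pair for 22 members and for 70.1% of all genes, with 5 members and 30.2% of all genes lower. These 4 also rose in the panel, in lines that share no array with MT1. The 26 members that did not pass lay between -0.30 (UTP20) and 0.42 (RRP12). Without replicate 1 of each group, which leaves 1 untreated array, only NOP58 was called, and likewise with the replicate number as a block. When only TK6 and MT1 arrays entered the model 0 members were called (6 at an unadjusted p below 0.05, by limma). The ACTB ratio was 0.23 and 0.36 in the untreated and 0.57 in the MNNG array of MT1, and its part was not tested. With median-centring 0 of the 4 kept their call (1 member had an unadjusted p below 0.05, by limma), with changes of 0.092 to 0.16, and on values as deposited 1 was called. The median of all genes in MT1 was 0.033, 0.31 and -0.13 under quantile normalization, as deposited and with centring, and relative to it the members' median was 0.088, -0.042 and -0.042.

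**Figure D2:**
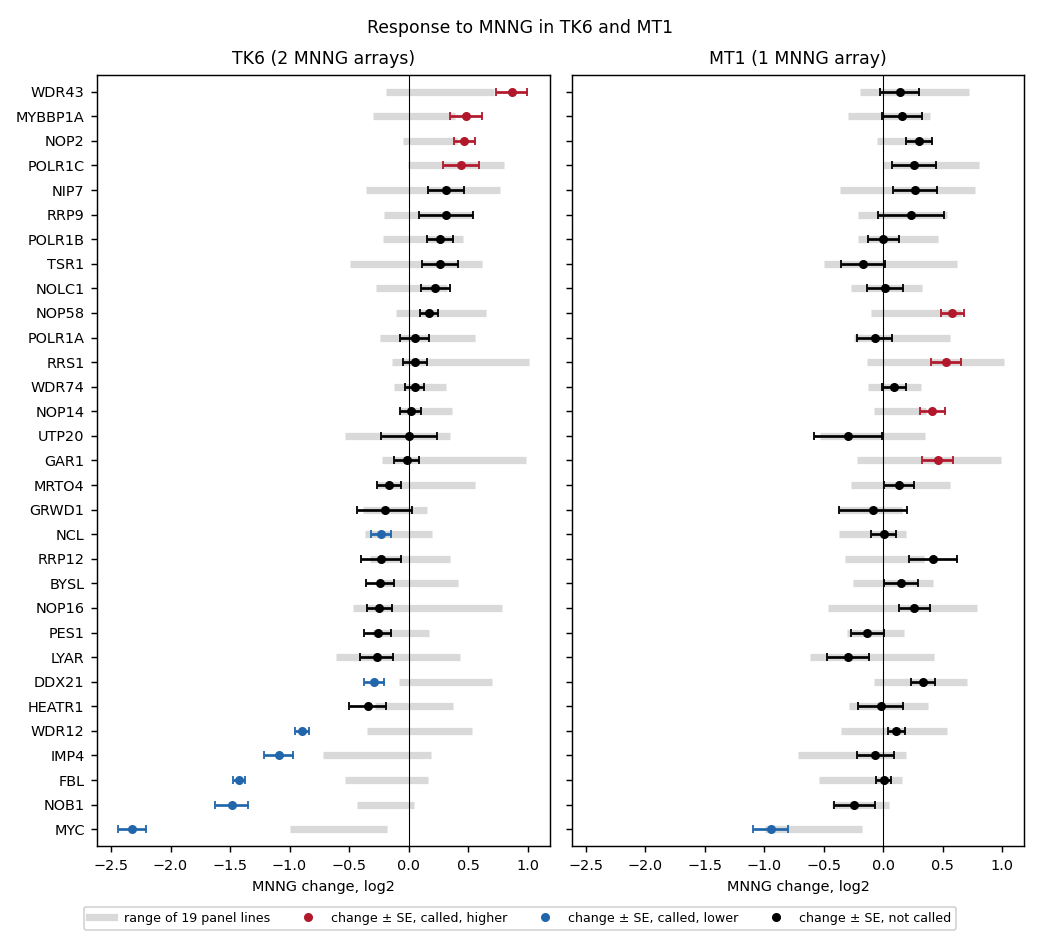
MNNG change (log2 ± standard error) of 30 ribosome biogenesis genes and MYC in TK6 (left, 2 MNNG arrays) and MT1 (right, 1 MNNG array), red where called higher, blue where called lower and black where not called, over a grey bar for the range of 19 panel lines. In TK6 the points of NOB1, FBL, IMP4 and WDR12 lie left of the grey bars, at -1.49 to -0.90, while in MT1 all 30 members but RRP12 and NOP14 lie within them.

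The difference between TK6 and MT1 was tested directly. It was called for 11 of 30 members (1 higher and 10 lower in TK6), or 36.7%, against 24.7% of all genes, 12.2% higher and 12.5% lower. The median difference was -0.18 over the members and -0.044 over all genes. The change of MYC was lower in TK6 by 1.38 (-1.38 ± 0.19, adjusted p = 2.3e-07). FBL differed by -1.43 ± 0.084 (adjusted p = 6.12e-17). In MT1 its change was 0.0034 ± 0.065 (11.48 and 11.46 untreated, 11.47 after MNNG). NOB1 differed by -1.25 ± 0.22 (adjusted p = 2.09e-05), IMP4 by -1.03 ± 0.20 (adjusted p = 8.34e-05) and WDR12 by -1.01 ± 0.092 (adjusted p = 1.77e-11). WDR43 was the exception upward (0.73 ± 0.21, adjusted p = 0.00737). Among the rest, DDX21 (-0.63) and NOP16 (-0.51) combined a value below 0 in TK6 with one above 0 in MT1, and GAR1, RRS1, NOP58 and NOP14 (-0.48 to -0.40) combined a rise in MT1 with values of -0.017 to 0.17 in TK6. The second probe set of DDX21 gave 0.011 in TK6 and -0.11 in MT1, so the difference of DDX21 rests on 1 of its 2 probe sets. With probe sets averaged the difference of WDR12 was -0.61. The count of 11 was 5 with values as deposited, 2 after centring, 6 without replicate 1 and 6 when only TK6 and MT1 arrays entered the model.

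Against the 19 panel lines, TK6 lay below the whole range of line changes for 6 members (FBL, NOB1, IMP4, WDR12, DDX21 and HEATR1), above it for 3 (WDR43, MYBBP1A and NOP2) and within it for 21. Of all genes, 43.9% lay outside it, 23.7% below and 20.2% above. MT1 lay above it for 2 (NOP14 and RRP12) and within it for 28, where 10.7% of all genes lay outside it, 5.29% above and 5.45% below. Lying outside the panel's range was thus no rarer among all genes than among the members in TK6. The fall of MYC in TK6 was also outside the panel's range of -0.99 to -0.18, and that in MT1 was inside it, near the low end.

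Panel lines differed in their response for 6 of the 30 members by limma's F test on single arrays (20.0%), against 6.75% of all genes. FBL had the largest F (8.04, adjusted p = 4.27e-05), with changes of -0.54 in line 4, a median of 0.046, and 0.16 in line 22. WDR12 (F 5.82, adjusted p = 0.000698) ran from -0.35 in line 4 to 0.53 in line 20, NOP16 (F 5.03, adjusted p = 0.00207) from -0.46 to 0.79, and GAR1 (F 4.68, adjusted p = 0.00364) from -0.22 to 0.99 in the same 2 lines. RRS1 and MRTO4 were the others. Line 4 had the lowest change of 12 of 30 members (share of all genes not computed) and also the deepest fall of MYC (-0.99). Its FBL went from 11.30 to 10.76 and its IMP4 from 9.38 to 8.66, the only drops of these genes over 0.5 among the 19 lines. FBL, IMP4 and WDR12, which fell in TK6, were among the members for which line 4 stood lowest, with WDR12 at -0.35. NOB1 was at -0.37 in line 4 and at its lowest, -0.43, in line 20. These values are after quantile normalization, and the place of line 4 depended on the scaling. On values as deposited its MYC change was -1.03 and its mean change of the members -0.235. With centring they were -0.80 and 0.0016, and line 24 lay lower in both (-1.20 and -0.59).

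Line 20 stood at the other end, with the highest change of 17 of 30 members. RRS1 went from 7.84 to 8.85 there, GAR1 from 8.33 to 9.31, POLR1C from 7.04 to 7.84 and NOP16 from 8.73 to 9.51. Its untreated level was the lowest of the 24 lines for 14 of 30 members, and after MNNG it was the highest or lowest of the 19 for 0 members. Over the members its mean level was 8.42 untreated, the lowest of the 19 lines, and 8.78 after MNNG, where the 19 lines had a median of 8.79. Both lines kept 1 MNNG array. The shares of all genes at these extremes were not computed, so the counts are not shown to be particular to the members. Without line 4 or without line 20 the count of members that differed between lines was 3 in place of 6. FBL (F 3.25) and WDR12 (F 3.14) lost their call without line 4, and GAR1 (F 2.63) without line 20. WDR12 also lost it with its probe sets averaged (F 1.42, adjusted p = 0.583). With values as deposited limma's F test called 0 members (4 at an unadjusted p below 0.05). With median-centring it called 3, but FBL, WDR12, NOP16 and GAR1 were not among them.

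**Figure D3:**
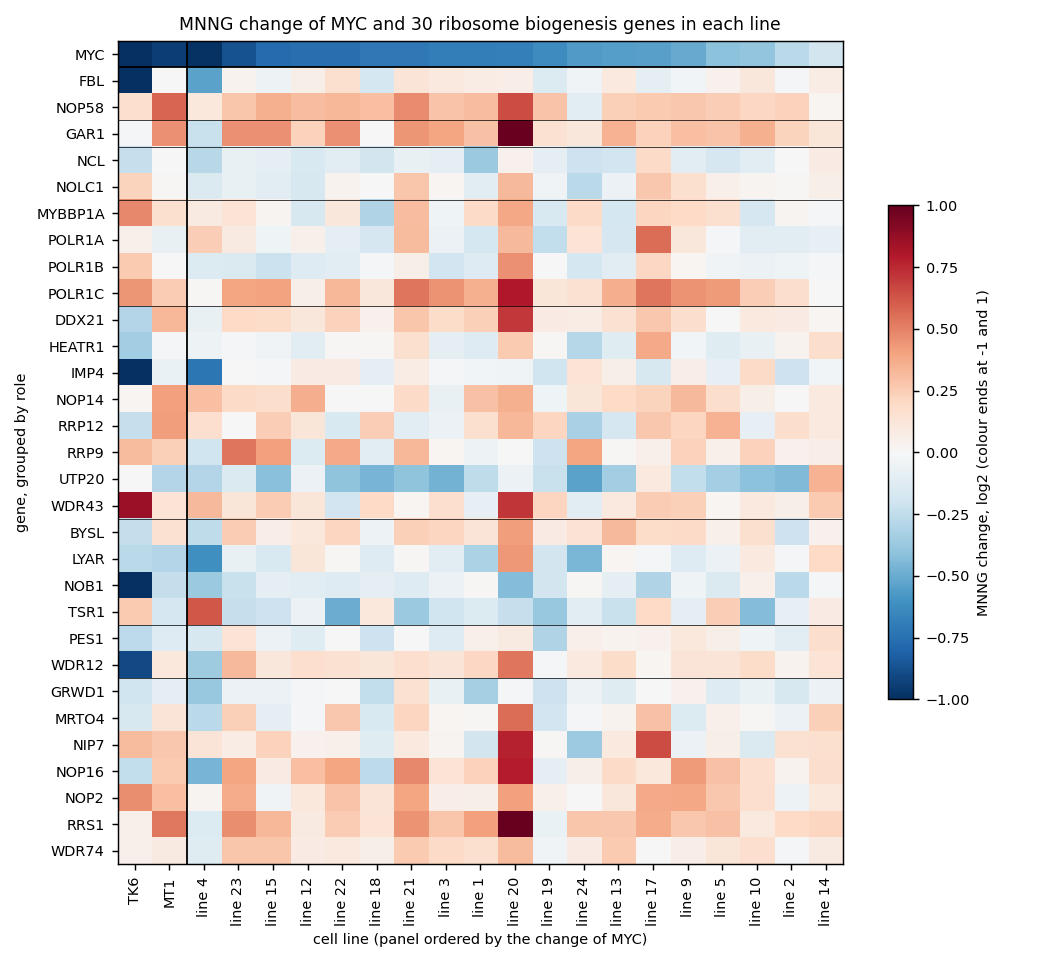
MNNG change (log2, colour from -1 to 1) of MYC and 30 ribosome biogenesis genes, grouped by role, in TK6, MT1 and 19 panel lines ordered by their change of MYC. The columns of TK6 and line 4 are blue for FBL, IMP4, NOB1 and WDR12, the column of line 20 is red for most rows, and the rows of GAR1, NOP58, POLR1C and RRS1 are red in most lines.

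Across the panel the members' change had little correlation with that of MYC when arrays were quantile normalised. The mean change of the 30 members per line ran from -0.13 in line 4 to 0.37 in line 20 (mean 0.063, SD 0.11), above 0 in 14 of 19 lines. It correlated with the change of MYC at Pearson r = 0.091 and Spearman rho = 0.13 (n = 19 lines), and without the 2 lines farthest from the median MYC change at r = 0.17 (n = 17). This and the following are descriptions, since the points share arrays and scaling. For single members r ran from -0.32 (NOP58) to 0.42 (NCL), above 0 for 15 of 30, with a median of 0.012. Over all genes tested it ran from -0.88 to 0.81, above 0 for 6241 of 13841, with a median of -0.032. With MYC from replicate 1 and the members from replicate 2 in the 8 lines with both MNNG arrays, r was 0.74, and with the replicates exchanged it was -0.26. On values as deposited r was 0.41 and with median-centring 0.80. The mean of all genes then correlated with MYC at 0.36 and 0.81, against -0.25 after quantile normalization. In the centred values line 17 stood apart (0.22 for MYC and 0.79 for the members), and without it r was 0.63. With the mean of all genes subtracted from both the members and MYC, r was 0.585 as deposited and 0.585 with centring. It was 0.14 after quantile normalization. Both sides then share the subtracted mean, so these values are descriptions too. The lowest array medians lay at 5.00, the bottom of the scale, so for these arrays the median measures the floor.

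**Figure D4:**
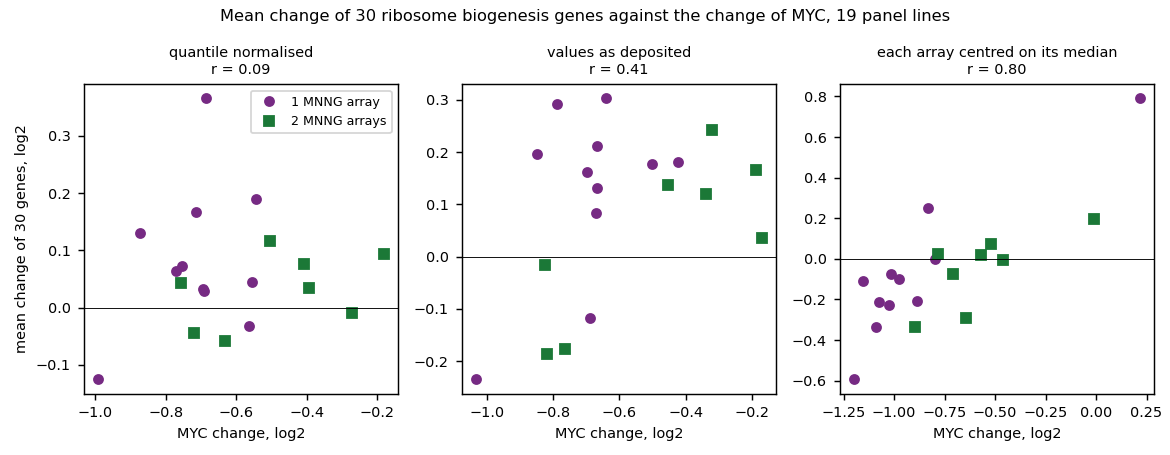
Mean MNNG change of 30 ribosome biogenesis genes (log2) against the change of MYC (log2) in 19 panel lines, under 3 scalings of the arrays, with purple circles for lines with 1 MNNG array and green squares for lines with 2. The correlation is 0.09 after quantile normalization, 0.41 on values as deposited and 0.80 with each array centred on its median, where a single line at the top right, line 17, stands apart.

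Changes of members were correlated with each other across the lines. Over 435 pairs the median correlation was 0.37, above 0 for 357 pairs. The same was not computed for pairs of other genes, so these values are not shown to be particular to the members. The highest were those of DDX21 and RRS1 (0.89), GAR1 and DDX21 (0.88), GAR1 and NOP16 (0.87) and FBL and IMP4 (0.87). The lowest were NOB1 and NIP7 (-0.76) and FBL and TSR1 (-0.72). The pairs share the same arrays, and lines 4 and 20 are extreme in many of them.

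Before treatment 25 of 30 members differed between the 24 panel lines (83.3%, against 64.3% of all genes), within narrow ranges. WDR12 had the largest F (37.5, adjusted p = 2.92e-14), with levels of 8.93, 9.41 and 9.97 as lowest, median and highest, a 2.07-fold range. NOP16 (F 21.3) ran over 2.38-fold, NOP14 (F 17.9) over 2.02-fold and POLR1A (F 17.2) over 2.96-fold, from 5.96 to 7.53. The mean untreated level of the members correlated with that of MYC at r = 0.044 and rho = 0.0026 (n = 24 lines, from the same arrays). On values as deposited 16 of 30 differed.

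Untreated MT1 and TK6 differed for 14 of 30 members (13 higher and 1 lower in MT1, 46.7%), against 25.2% of all genes, 13.6% higher and 11.7% lower, while MYC differed by 0.013 ± 0.12. LYAR was at 9.42 and 9.48 in MT1 and at 8.50 and 8.47 in TK6 (0.97 ± 0.14, adjusted p = 5.88e-07). NOP16 (0.65 ± 0.11, adjusted p = 5.07e-06), MRTO4 (0.64 ± 0.10, adjusted p = 2.37e-06) and RRP9 (0.67 ± 0.23, adjusted p = 0.0253), which binds the U3 small nucleolar RNA, were also higher in MT1. NOB1 was lower, at 9.34 and 9.59 in MT1 against 10.22 and 10.40 in TK6 (-0.85 ± 0.14, adjusted p = 4.9e-06). Untreated TK6 lay below the whole range of the 24 panel lines for 10 members and above it for 1, NOB1, where 33.7% of all genes lay outside it, 17.3% below and 16.4% above. MT1 lay below it for 4 and above it for 3, where 34.2% of all genes lay outside it, 16.4% below and 17.8% above. The call of RRP9 ended on values as deposited (0.70), without either replicate and when only TK6 and MT1 arrays entered the model. With probe sets averaged the call of MRTO4 ended (0.52, adjusted p = 0.123) and NOP16 was at 0.25, still called. The count of 14 was 9 with values as deposited and 8 after centring.

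The choice of probe set mattered for some members. Of the 17 members with several probe sets, all gave the same sign in the panel for 7 and in TK6 for 7. TSR1, read as 0.26 in TK6 (not called), gave -0.37, -0.51 and -0.54 on its 3 other probe sets. The 4 probe sets of POLR1B gave 0.26 to 0.68 in TK6, and the 4 of NOP16 gave -0.31 to -0.18. LYAR, at -0.072 in the panel, gave 0.20 on its other probe set. HEATR1, at -0.0014 there, gave -0.18 (17 lines below 0) on a probe set at nearly the same mean level (8.94 against 8.95). Its others, at lower levels, gave -0.89 to 0.099. MYBBP1A, at 0.055, gave -0.40 on its other probe set, below 0 in 17 lines. NIP7, at 0.089 in the panel and 0.27 in MT1, gave 0.29 and 0.62 on its other probe set (mean level 8.17 against 8.41).

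The rest of the pathway was read from 128 further genes, of which 123 were tested. These genes and the lists that follow are given under quantile normalization alone, without the other scalings. In the panel 71 of the 123 were called (62 higher and 9 lower, 57.7%), with a median of 0.094. Of all genes 42.6% were called, 28.7% higher and 13.8% lower. Rises included RRP15, a 60S factor (0.45 ± 0.061, adjusted p = 3.26e-06, 19 of 19 lines), NAF1, which assembles H/ACA particles (0.40 ± 0.070, adjusted p = 6.41e-05), and LTV1, a 40S export factor (0.38 ± 0.047, adjusted p = 1.08e-06). Falls included the exosome helicase MTREX (-0.28 ± 0.043, adjusted p = 1.6e-05), the RNA acetyltransferase NAT10 (-0.26 ± 0.039, adjusted p = 1.19e-05) and SDAD1 (-0.18 ± 0.041, adjusted p = 0.00106). In TK6 67 were called (35 higher and 32 lower, 54.5%, against 41.2% of all genes), with a median of -0.030. In MT1 9 were called, all higher (7.32%, against 3.56%), with a median of 0.15. TK6 and MT1 differed for 38, 8 higher and 30 lower (30.9%, against 24.7%). In TK6 NAT10 fell by the most of these 6 (-1.04 ± 0.14, adjusted p = 9.02e-08) and MTREX fell as well (-0.76 ± 0.15, adjusted p = 3.86e-05).

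Other MYC targets, outside ribosome biogenesis, were listed as 25 genes, of which 24 were tested. In TK6 18 were called (5 higher and 13 lower, 75.0%, against 41.2% of all genes), with a median of -0.28, against -0.0068 for the members. In the panel 6 rose and 9 fell (62.5%, against 42.6%), with a median of -0.012, and in MT1 2 rose and 1 fell (12.5%, against 3.56%). Of 53 cytosolic ribosomal protein genes tested, whose products these factors assemble, 26 rose and 2 fell in the panel (52.8%, against 42.6% of all genes), and 4 rose and 10 fell in TK6 (26.4%, against 41.2%), with a median of 0.033 in MT1. Of 14 p53 targets tested, 13 rose in TK6 (92.9%, against 41.2% of all genes called either way), with a median of 1.97. In the panel 9 of them rose and 1 fell (71.4%, against 42.6%), with a median of 0.20, and in MT1 their median was 0.081. Within the MYC and MAX network, MXI1, a MAX partner that opposes MYC, fell with MYC in the panel (-0.46 ± 0.077, adjusted p = 3.91e-05), in TK6 (-0.85 ± 0.096, adjusted p = 9.05e-10) and in MT1 (-0.47 ± 0.12, adjusted p = 0.0159). It was chosen after its values were seen. Members whose promoter window held CACGTG and those without it are given side by side with no test. Of 14 tested members with the motif, 6 rose and 1 fell in the panel, 3 rose and 3 fell in TK6, and 2 rose and 0 fell in MT1. Of 12 without it, 4 rose and 3 fell in the panel, 1 rose and 3 fell in TK6, and 0 rose and 0 fell in MT1. Among all genes, 28.7% rose and 13.8% fell in the panel, 21.6% and 19.5% in TK6, and 2.36% and 1.21% in MT1.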

How the data were processed

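The authors deposited array intensities on a linear scale, made with PLIER per the submitters' processing notes. Its version and settings were not stated there. The intensities start at 16 and reach 65535. They were transformed as log2(value + 16) and quantile normalised, since array medians differed by more than 0.2. Levels near 5 are at the floor, where changes are understated. Probe sets were named from the platform annotation (41097 with a single symbol, 1801 with several, 11777 with none), and the brightest probe set stood for a gene. Arrays limit precision by their number. limma 3.58.1 in R 4.3.3 gave moderated tests with Benjamini-Hochberg adjustment over 13842 genes. For the panel, each line entered as a block with its duplicates averaged. TK6, MT1 and their difference were contrasts in a model with a mean per line and condition, where all duplicates share the spread. Lines were compared with F tests on single arrays. Figures used Python 3.11.15 and matplotlib 3.10.9. The tests were also run on simulated data, with levels and spreads taken from these arrays.

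Named members were the 6 with the largest change each way in the panel among called members with the same sign in at least 0.8 of lines, up to 4 each way in the other contrasts and the 4 largest F values, with MYC and up to 3 other pathway genes each way. Other members named were added after their values were seen. The members, the lists and the spike-in rule were chosen with earlier results of these data known. Same-numbered duplicates were checked for pairing: over 9 lines their deviations correlated at -0.62 to 0.14, so the numbers were not used as pairs. Alternatives were pseudocounts of 1 and 64, other scalings, other filters, the mean of all probe sets, all arrays, other models, and leaving out each replicate or line.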

Additional observations from a re-analysis of the deposited data

Results flagged for a closer look

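The MNNG change differed between TK6 and MT1, by the test of the difference in limma's model, for 11 members. As TK6 minus MT1 the differences were -1.43 for FBL, -1.25 for NOB1, -1.03 for IMP4, -1.01 for WDR12, -0.63 for DDX21, -0.51 for NOP16, -0.48 for GAR1, -0.47 for RRS1, -0.41 for NOP58, -0.40 for NOP14 and 0.73 for WDR43. Adjusted p-values ran from 6.12e-17 for FBL to 0.0333 for GAR1. Each rests on 2 MNNG arrays of TK6 and 1 of MT1. MYC differed in the same direction as 10 of the 11. No cause was tested.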

How the results depend on the processing

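In TK6 the falls of FBL, NOB1, IMP4, WDR12 and MYC kept their call under the other pseudocounts, filters and scalings and with probe sets averaged (WDR12 then at -0.31 in place of -0.90), but lost it with the 22 left-out arrays put back (changes of -2.36 to -0.91). Values near the floor and the single MT1 MNNG array limit the rest. Pseudocounts of 1 and 64, a 50% filter and a prior without trend changed no call listed; no filter changed 1. On values as deposited the counts of called members were 1 in MT1, 5 for TK6 minus MT1, 0 for response between lines, 16 for untreated lines and 9 for untreated MT1 against TK6, and r with MYC was 0.412. With median-centring they were 6 in the panel, 0 in MT1, 2 for TK6 minus MT1, 3 for response between lines and 8 untreated, with r = 0.797. With probe sets averaged 21 members were called in the panel (13 higher and 8 lower), and r was 0.0105. With the 22 left-out arrays put back limma called 0 members in TK6, in MT1, for their difference, for response between lines and untreated (0, 0, 0, 2 and 1 at an unadjusted p below 0.05). The members' median was then -0.51 and r 0.908. POLR1C (-0.86), RRS1 (-1.24), NOP58 (-0.71), NOP16 (-0.50) and NOP2 (-0.598) turned negative in the panel and RRS1 in MT1 (-0.40), and TK6 minus MT1 turned positive for FBL (1.12), NOB1 (0.43), WDR12 (0.50) and MYC (1.05). The cause was not tested. Same-numbered arrays were not shown to pair (5 of 18 MNNG arrays correlated best with their own number). With the replicate number as a block panel calls numbered 14, TK6 calls 12, MT1 calls 1 and calls for the difference 7, and GRWD1 was at 0.00030 in the panel. Leaving out a replicate gave 2 to 15 called in the panel, where dropping replicate 1 keeps only lines with a second MNNG array, 7 to 8 in TK6, 1 in MT1, 6 for TK6 minus MT1 and 9 to 10 untreated, with r of -0.26 to 0.58 and GRWD1 at -0.20 to 0.067. Leaving out a line gave 15 to 18 called in the panel, 3 to 8 for response between lines (3 without line 4 or 20), a median of 0.044 to 0.083 and r of -0.13 to 0.20. Without the line block 6 were called in the panel. TK6 and MT1 fitted alone gave 0 in MT1 (6 at an unadjusted p below 0.05 by limma), 6 for their difference and 9 untreated. In the 8 lines with both MNNG arrays, an alternative chosen after seeing the data, 8 were called in the panel and 0 for response (4 unadjusted, by limma), and r was 0.431.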
